A study of Homo sapiens with 10 samples.

Results

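Immediate early genes are the genes that cells transcribe first after a stimulus, without needing new protein synthesis. The 10 members described here were taken by name: the AP-1 subunits JUN, JUNB, FOS, FOSB and FOSL1, the related factor ATF3, the zinc finger factor EGR1, the early response genes IER2 and IER3, and the phosphatase gene DUSP1. Whether each of them answers a stimulus without new protein synthesis was not tested here. All 10 had a row in the 33551-row count table, and all 10 were among the 17978 genes that passed the filter on low counts.

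The libraries came from A549, an established human lung adenocarcinoma line, kept in DMEM with fetal bovine serum and antibiotics. Every group shared this background. The 5 lines were wild type for the lipid transporter gene ABCA3 (WT), labelled as an ABCA3 knockout (KO), or carried the ABCA3 variant E292V, E690K or L101P. Every line gave an untreated library and a library taken after a night with LV-ABCA3:GFP, a VSVG lentivirus that delivers ABCA3 with GFP at an MOI (infectious units per cell) of 20. Each genotype was represented by 1 line and each line and treatment by 1 library, so a difference between lines holds for these cultures, and no independent clone of a genotype was measured. Cells were lifted with TrypLE before RNA was taken, in all groups alike.

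Total counts ran from 59430095 to 96811421 per library, and the mitochondrial share from 4.27% to 5.71%. ABCA3 went against the treatment labels of the KO pair: its level was 600.3 CPM (counts scaled to library size) in the library labelled untreated KO and 26.0 CPM in that labelled transduced KO, and the EGFP row had the same order, at 37.9 and 0.0497 CPM. In L101P ABCA3 was also lower in the transduced library (1151 and 922 CPM) while EGFP was higher (1.01 and 36.9 CPM), in E690K EGFP hardly differed (16.5 and 18.5 CPM), and the untreated WT library already held 69.7 CPM of EGFP (150.9 CPM transduced). The KO pair is called by its labels throughout, and values with those labels exchanged are given where they bear on a result. The labelled cell type is alveolar basal epithelial, and the epithelial keratins KRT7, KRT8 and KRT18 stood at no less than 1587 CPM. The other epithelial markers were lower: KRT19 ran from 61.6 to 473 CPM, CDH1 from 21.8 to 35.4 and EPCAM from 7.62 to 22.5. The alveolar type 2 markers SFTPC and SFTPB reached at most 0.335 and 0.128 CPM, the airway basal keratins KRT5 and KRT14 at most 0.508 and 0.473 CPM, and the type 1 marker PDPN was at 0 in all 10 libraries. Other markers of those types were present, the basal TP63 at 2.07 to 12.5 CPM and the type 1 RTKN2 and AGER at 5.93 to 10.6 and 1.59 to 2.92 CPM. Of 4 leukocyte markers CD3E was at 0 throughout, PTPRC reached 0.134 and LYZ 1.01 CPM, and CD68 ran from 20.1 to 44.2 CPM. Of 3 endothelial markers PECAM1 reached 0.101, VWF 0.160 and CDH5 0.968 CPM, and of 4 fibroblast markers COL1A1 ran from 14.2 to 116.5 CPM while COL1A2, COL3A1 and DCN reached at most 0.370.

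In a resting cell most immediate early genes are held ready, and a signal through growth factor receptors and the ERK kinases, or through stress kinases, switches them on within minutes. Serum response factor with its ELK partners acts at CArG boxes and CREB or ATF proteins at cyclic AMP response elements (CREs) in their promoters. The FOS and JUN proteins then pair into AP-1, and DUSP1 dephosphorylates the kinases that started the signal. In lung epithelium and in A549 these genes are known to respond to growth factors, stretch and cell stress.

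The promoters of EGR1 and FOSB, called in 3 lines against WT, and of DUSP1, the 1 member called lower, are shown here because they hold the letters through which these signals are known to act. RefSeq windows (GRCh38.p14) matched 8 of the 10 members (not FOSL1 and IER3) with 9 windows, of which the 250 bases before the start were searched on both strands. The windows below are EGR1 at chr5:138465229-138465478 on the plus strand, FOSB at chr19:45467746-45467995 on the plus strand and DUSP1 at chr5:172771196-172771445 on the minus strand. Capitals mark the CArG boxes of EGR1 and every match to the palindromic CRE TGACGTCA or its short form TGACG, read as CGTCA on the other strand.
EGR1: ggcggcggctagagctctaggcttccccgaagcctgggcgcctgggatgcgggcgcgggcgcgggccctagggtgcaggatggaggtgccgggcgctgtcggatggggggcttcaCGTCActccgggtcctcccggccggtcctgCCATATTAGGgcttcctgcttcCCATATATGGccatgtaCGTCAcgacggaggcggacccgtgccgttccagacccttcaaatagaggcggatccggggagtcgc
FOSB: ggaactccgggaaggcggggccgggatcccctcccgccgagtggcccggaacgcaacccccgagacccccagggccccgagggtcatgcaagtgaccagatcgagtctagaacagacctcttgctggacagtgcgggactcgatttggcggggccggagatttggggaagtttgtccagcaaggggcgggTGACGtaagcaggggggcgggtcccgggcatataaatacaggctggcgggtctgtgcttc
DUSP1: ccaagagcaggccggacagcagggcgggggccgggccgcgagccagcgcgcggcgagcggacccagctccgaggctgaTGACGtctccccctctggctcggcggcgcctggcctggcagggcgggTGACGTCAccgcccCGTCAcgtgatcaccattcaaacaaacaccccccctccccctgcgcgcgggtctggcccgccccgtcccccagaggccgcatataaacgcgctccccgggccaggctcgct
EGR1 held CArG boxes at -105 to -96 and at -83 to -74 from the start, and short CREs at -135 to -131 and at -66 to -62. FOSB held a short CRE at -60 to -56 and the TATA motif TATAAA at -30 to -25. DUSP1 was the 1 member window with the palindromic CRE, at -125 to -118, which overlaps its short form on both strands. The JUN window and the more upstream ATF3 window share TGACATCA, the AP-1-like letters known from the JUN promoter. In JUN this site lies before the RefSeq start but inside the annotated gene span given below. The 30 bases around the site, in capitals, are chr1:58784096-58784125 on the minus strand for JUN and chr1:212565273-212565302 on the plus strand for ATF3.
JUN: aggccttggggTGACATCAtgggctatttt
ATF3: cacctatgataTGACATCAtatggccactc
The short CRE was in 7 of the 9 member windows, against 21.2% of 35116 windows of the same length over all genes. Those windows were of EGR1, FOSB, DUSP1 and JUN, and also of FOS, JUNB and IER2, which were called in no line against WT. TATAAA was in 5 of 9 (10.7% of all), TGACATCA in 2 of 9 (2.37%), a CArG box in 1 of 9 (1.16%) and the palindromic CRE in 1 of 9 (1.65%). The canonical AP-1 letters TGACTCA were in 0 of 9 (4.2%). A match says only that these letters are in the window, and sites further upstream or with other letters were not searched.

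Which lines differ in these genes? In the E690K line EGR1, FOSB, FOSL1, ATF3 and JUN stood above WT, in the KO line EGR1 and FOSB, and in the L101P line EGR1 and FOSB stood above and DUSP1 below. No member passed in E292V. In these bulk libraries a change in the share of cells that express a gene and a change in RNA per cell cannot be told apart. These comparisons share the WT libraries. The test was edgeR's quasi-likelihood test in a fit with terms for line and for vector to the 10 libraries, with Benjamini-Hochberg adjustment over all 17978 genes and a threshold of 0.05 on the adjusted p. In the test for any difference among the lines 8 of 10 members passed, against 13.0% of all genes. Those that did not were JUNB (adjusted p = 0.251) and IER2 (adjusted p = 0.18), of which IER2 passed with no filter on low counts (0.0449) and without the L101P pair (0.0139).

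Against WT, 2 of 10 members were higher in KO, where 0.807% of all genes were called higher, and 0 lower, where 0.990% were called lower. In L101P 2 of 10 were higher (2.33% of all genes) and 1 was lower (1.61%). In E292V 0 of 10 were higher (0.295%) and 0 lower (0.756%), and 4 of 10 had an unadjusted p under 0.05, as had 10.3% of all genes. DESeq2 and limma-voom also called 0 members in E292V, while edgeR called 1 with no filter on low counts and 2 without the L101P pair. In E690K 5 of 10 were higher (3.05%) and 0 lower (2.33%). The members' median log2 fold change was 0.47 in E690K, 0.31 in L101P, 0.25 in KO and 0.08 in E292V. Over all genes it lay between -0.02 and 0.00 in these contrasts. The 5 calls in E690K were made in each of the other settings run. Among these were fits without the KO, L101P or E292V pair, and all of them kept the WT and E690K libraries. The numbers in the other lines moved, as given with each gene below.

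**Figure D1:**
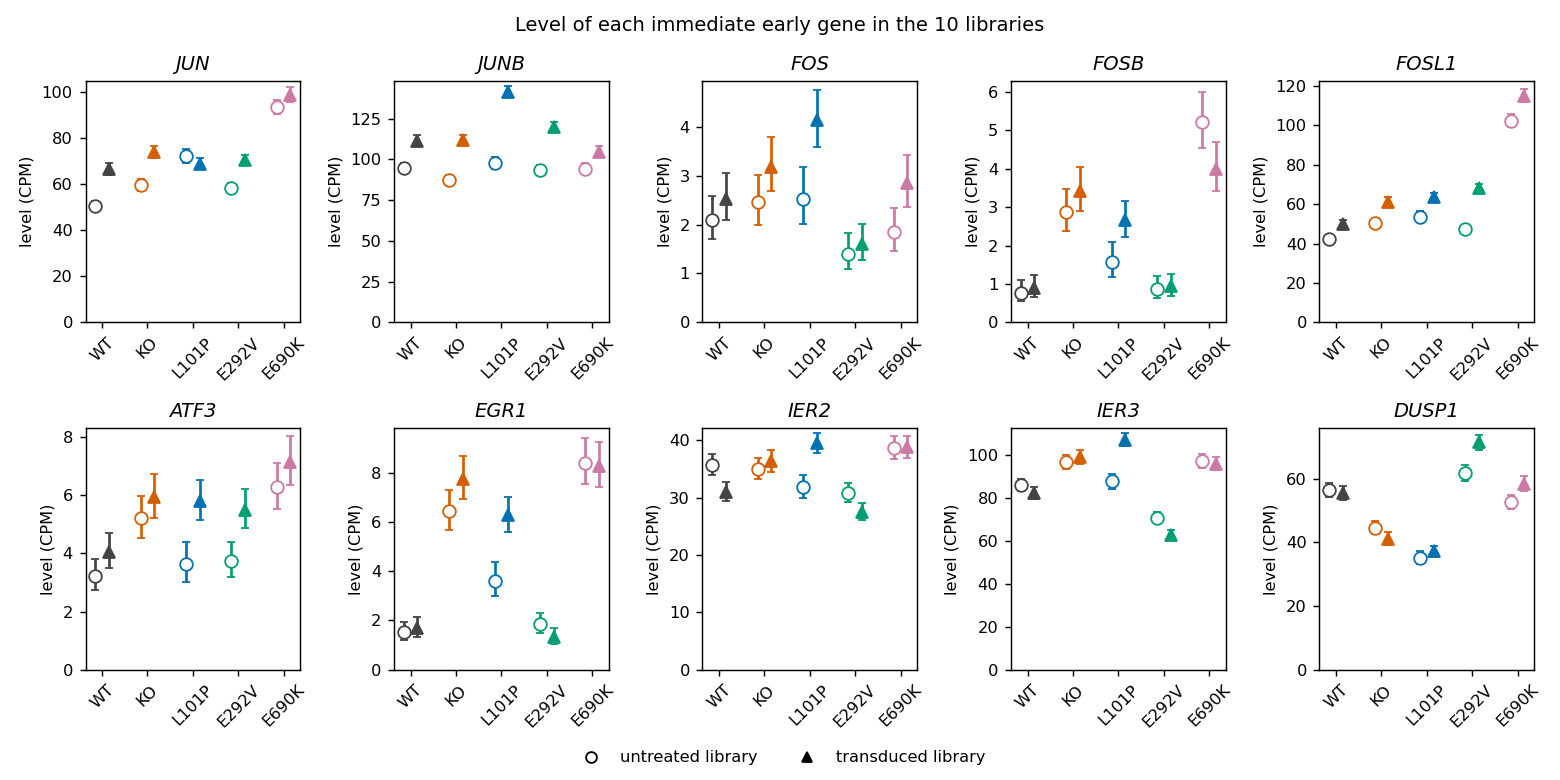
Level of each gene in CPM after TMM scaling (vertical axis, from 0) by line (horizontal axis), with untreated libraries as open circles and transduced libraries as filled triangles. Error bars are 95% Wilson intervals on read pairs and cover counting error only. EGR1 and FOSB are high in KO, L101P and E690K and low in WT and E292V, FOSL1 and JUN stand highest in E690K, and DUSP1 is lowest in L101P.

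JUN is the AP-1 subunit that pairs with any FOS protein (ENSG00000177606.6, chr1:58780788-58784327 on the minus strand, GRCh38, GENCODE release 29). Its level in the untreated and transduced libraries was 50.6 and 66.6 CPM in WT, 59.7 and 74.1 in KO, 72.3 and 68.9 in L101P and 58.3 and 70.5 in E292V. In E690K it was 93.3 and 98.9 CPM, above every library of the other lines. JUN rose in E690K by a log2 fold change of 0.72 (SE 0.10, adjusted p = 0.00175). The levels of the other lines overlapped from each line to the next in order of their means (L101P, KO, E292V, WT), and none of them passed against WT. Without the E690K pair JUN no longer passed the test among lines (adjusted p = 0.405).

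JUNB, a JUN family subunit with weaker transactivation than JUN (ENSG00000171223.5, chr19:12791496-12793315, plus strand), was the steadiest AP-1 member across lines. It stood at 94.8 and 111.4 CPM in WT, 87.4 and 111.7 in KO, 97.8 and 141.5 in L101P, 93.2 and 119.5 in E292V and 94.4 and 104.6 in E690K. All neighbours in the order of its line means overlapped. The fitted differences from WT ran from -0.06 in KO to 0.20 in L101P on the log2 scale, and none passed.

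FOS, the founding partner of JUN (ENSG00000170345.9, chr14:75278774-75282230, plus strand), was low in every library. It stood at 2.10 and 2.53 CPM in WT, 2.45 and 3.18 in KO, 2.53 and 4.13 in L101P, 1.41 and 1.60 in E292V and 1.85 and 2.84 in E690K. These levels rest on 114 to 388 counts, and the 95% interval of the highest, 3.58 to 4.75 CPM, overlaps that of the transduced KO library, 2.68 to 3.78 CPM. E292V was lowest and its libraries did not overlap with those of WT, while the other lines overlapped in order. FOS passed the test among lines (adjusted p = 0.0486) and in no line against WT (E292V -0.62, SE 0.24, adjusted p = 0.357). The call among lines did not hold without the KO pair (0.0754), the L101P pair (0.0682), the E292V pair (0.447) or the E690K pair (0.0634), nor with the KO labels exchanged (0.129) or with 10 counts required in every library (0.0588).

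FOSB, a FOS family subunit (ENSG00000125740.13, chr19:45467995-45475179, plus strand), had the widest range of the members, 6.72-fold from its lowest to its highest library. The WT libraries stood at 0.777 and 0.898 CPM and the E292V libraries at 0.876 and 0.937. KO was at 2.88 and 3.43 CPM, L101P at 1.57 and 2.66, and E690K at 5.22 and 4.00. The lines fell in the order E690K, KO, L101P, then E292V and WT, and only those last lines overlapped. FOSB rose against WT by 2.47 in E690K (SE 0.29, adjusted p = 0.000517), 1.91 in KO (SE 0.29, adjusted p = 0.00678) and 1.33 in L101P (SE 0.29, adjusted p = 0.0267), on the log2 scale. In E292V the difference was 0.12 (adjusted p = 0.946). The L101P call did not hold without the KO pair (adjusted p = 0.051), without the E690K pair (0.0512) or under limma-voom (0.0689). FOSB counts ran from 66 in the untreated WT library to 390 in the untreated E690K library. Its annotated end overlaps ERCC1 on the opposite strand, and the strand used in counting is not given in the sources used here. ERCC1 stood between 88.8 and 106.6 CPM and was highest in the untreated WT library, where FOSB was lowest.

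FOSL1, also called FRA-1, is the FOS family subunit typical of carcinoma lines with an active RAS and ERK pathway (ENSG00000175592.8, chr11:65892049-65900573, minus strand). It stood at 42.4 and 49.8 CPM in WT, 50.4 and 61.3 in KO, 53.7 and 63.4 in L101P and 47.3 and 68.1 in E292V. In E690K it stood at 102.4 and 115.1 CPM, far from the other lines. FOSL1 rose in E690K by 1.24 on the log2 scale (SE 0.09, adjusted p = 1.75e-05). In L101P it was 0.34 above WT (SE 0.09, adjusted p = 0.0586), which passed in 5 of the 9 other settings. In E292V it was 0.31 above WT (adjusted p = 0.177), which passed without the L101P pair (0.0436). Without the E690K pair FOSL1 did not pass among lines (adjusted p = 0.136). A processed pseudogene, FOSL1P1, carries its name in the annotation, and how reads shared with it were counted is not given in the sources used here.

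ATF3 is a stress-induced factor that pairs with JUN proteins or with itself (ENSG00000162772.16, chr1:212565334-212620777, plus strand). It stood at 3.23 and 4.06 CPM in WT, 5.21 and 5.94 in KO, 3.65 and 5.82 in L101P, 3.75 and 5.51 in E292V and 6.27 and 7.15 in E690K. The E690K libraries were above every other, and KO, L101P, E292V and WT overlapped in order. ATF3 rose in E690K by 0.89 on the log2 scale (SE 0.18, adjusted p = 0.0137). In KO it was 0.62 above WT (SE 0.18, adjusted p = 0.114), which passed without the L101P pair (0.0323). The call among lines was lost without the WT pair (adjusted p = 0.164), without the E690K pair (0.232) and with the KO labels exchanged (0.095).

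EGR1, a zinc finger activator driven by serum response factor and ELK proteins (ENSG00000120738.7, chr5:138465490-138469315, plus strand), had a pattern across lines much like that of FOSB. It stood at 1.53 and 1.68 CPM in WT and at 1.85 and 1.33 in E292V. KO was at 6.45 and 7.78 CPM, L101P at 3.62 and 6.27, and E690K at 8.43 and 8.31. The lowest library of those lines, untreated L101P, had an interval of 3.00 to 4.37 CPM, and the highest of the WT and E292V libraries, untreated E292V, one of 1.48 to 2.32 CPM. EGR1 rose by 2.39 in E690K (SE 0.26, adjusted p = 0.00028), 2.15 in KO (SE 0.25, adjusted p = 0.00204) and 1.62 in L101P (SE 0.25, adjusted p = 0.00541), on the log2 scale. These calls were made in each of the 9 other settings run for each contrast. In E292V the difference from WT was 0.00 (adjusted p = 0.998). The summed level of the 6 epithelial markers, nearly all KRT7, KRT8 and KRT18, also differed between these lines. It was 10266 CPM or more in the libraries of KO, L101P and E690K and 9448 or less in those of WT and E292V. The leukocyte sum, nearly all CD68, was at 29.6 CPM or more against 25.5 or less, and the airway basal sum at 5.51 or more against 4.26 or less. The fibroblast sum overlapped, at 14.4 to 31.4 against 26.2 to 116.9 CPM. The part of these markers in the EGR1 and FOSB results was not tested.

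IER2 encodes a small nuclear protein with a role in transcription (ENSG00000160888.6, chr19:13150415-13154908, plus strand). Its libraries lay between 27.5 CPM in transduced E292V and 39.5 in transduced L101P, with a median of 35.4. WT was at 35.7 and 31.0 CPM, KO at 35.1 and 36.4, untreated L101P at 31.8, untreated E292V at 30.8, and E690K at 38.7 and 38.8. No contrast with WT passed, and the largest difference was 0.22 in E690K (SE 0.12, adjusted p = 0.351).

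IER3, an early response gene with a role in cell survival (ENSG00000137331.11, chr6:30743199-30744554, minus strand), differed among lines through E292V. It stood at 86.1 and 82.4 CPM in WT, 96.8 and 99.1 in KO, 87.7 and 107.1 in L101P and 97.1 and 95.9 in E690K. The E292V libraries, at 70.8 and 62.9 CPM, were below all others. IER3 passed the test among lines (adjusted p = 0.00779) but not without the E292V pair (0.409). Its difference from WT in E292V was -0.33 (SE 0.10, adjusted p = 0.172), which passed with no filter on low counts (0.0214) and without the L101P pair (0.0105). IER3-AS1 on the opposite strand reached 0.129 CPM.

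DUSP1, the phosphatase that switches off the stress kinases and ERK (ENSG00000120129.5, chr5:172768090-172771195, minus strand), had an order of lines unlike that of EGR1 and FOSB. It stood at 56.4 and 55.5 CPM in WT, 44.6 and 41.1 in KO, 35.2 and 37.2 in L101P, 61.7 and 71.4 in E292V and 52.6 and 58.4 in E690K. The lines were ordered E292V, WT and E690K, KO, then L101P, and only WT and E690K overlapped. DUSP1 fell in L101P by 0.63 on the log2 scale (SE 0.09, adjusted p = 0.00413). In KO the difference was -0.38 (SE 0.09, adjusted p = 0.0597). That difference passed with no filter (0.00882), under DESeq2 (0.0121), under limma-voom (0.046) and without the L101P pair (0.0118). In E690K, where EGR1 and FOSB were highest, DUSP1 was -0.01 from WT (adjusted p = 0.963).

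**Figure D2:**
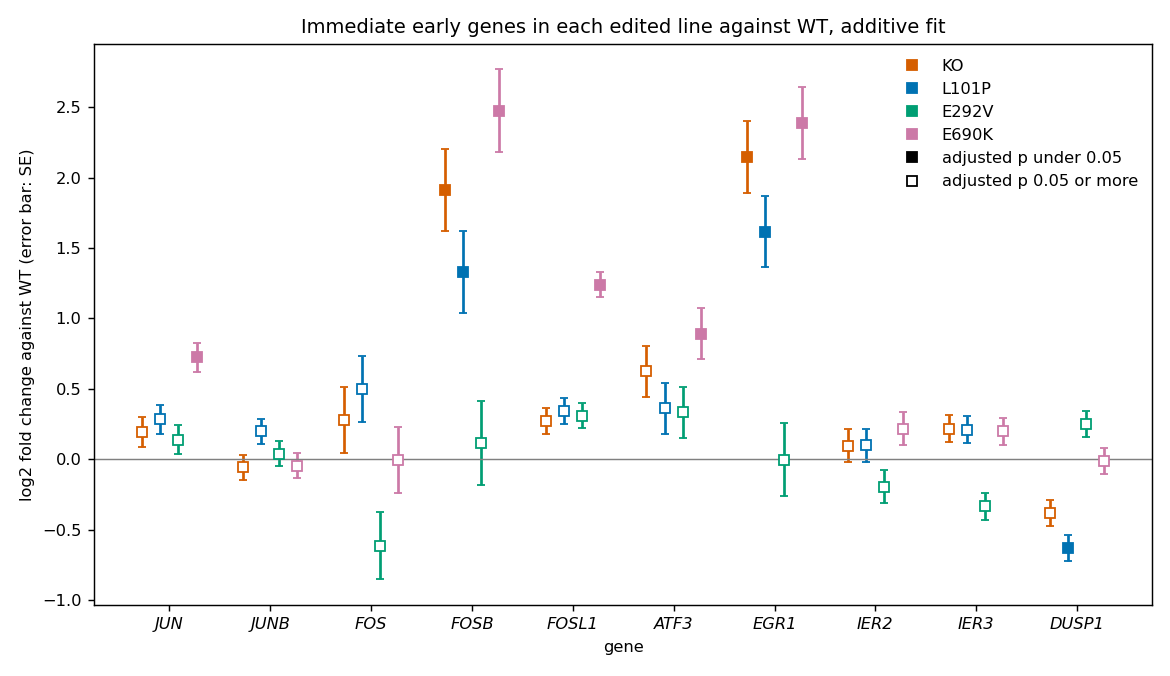
Log2 fold change of each gene (horizontal axis) against WT in the 4 edited lines, with error bars of 1 SE. Filled squares passed an adjusted p of 0.05: EGR1 and FOSB in KO, L101P and E690K, JUN, FOSL1 and ATF3 in E690K, and DUSP1, below 0, in L101P.

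Levels between genes were compared per kilobase of annotated exon. IER3 (65.3 ± 10.1 CPM per kb, SD over the 10 libraries) and JUNB (58.0 ± 8.87) were the most abundant, followed by FOSL1 (34.7 ± 12.9), DUSP1 (25.5 ± 5.76), JUN (20.1 ± 4.23) and IER2 (11.2 ± 1.32). The 4 scarcest were EGR1 (1.51 ± 0.960), ATF3 (1.25 ± 0.325), FOS (0.760 ± 0.248) and FOSB (0.419 ± 0.280). By this measure FOS family transcript was mostly FOSL1. It made up 63.2% to 72.6% of the summed per-kb level of FOS, FOSB, FOSL1 and FOSL2 in a library. FOSL2 made up 25.5% to 34.4%, FOS 0.759% to 2.46% and FOSB 0.327% to 1.29%. The order of FOSL1 and FOSL2 depends on the exon lengths used, 1887 and 7157 bases. Before division by length FOSL2 averaged 109.3 CPM and FOSL1 65.4. Which isoforms were expressed was not measured. The highest FOSL1 shares were in E690K, at 72.3% untreated and 72.6% transduced. In the JUN family JUNB took 38% to 49.5%, JUND 35.5% to 48.6% and JUN 11.4% to 19.6%, with the highest JUN shares in E690K as well (19.6% and 19.4%).

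**Figure D3:**
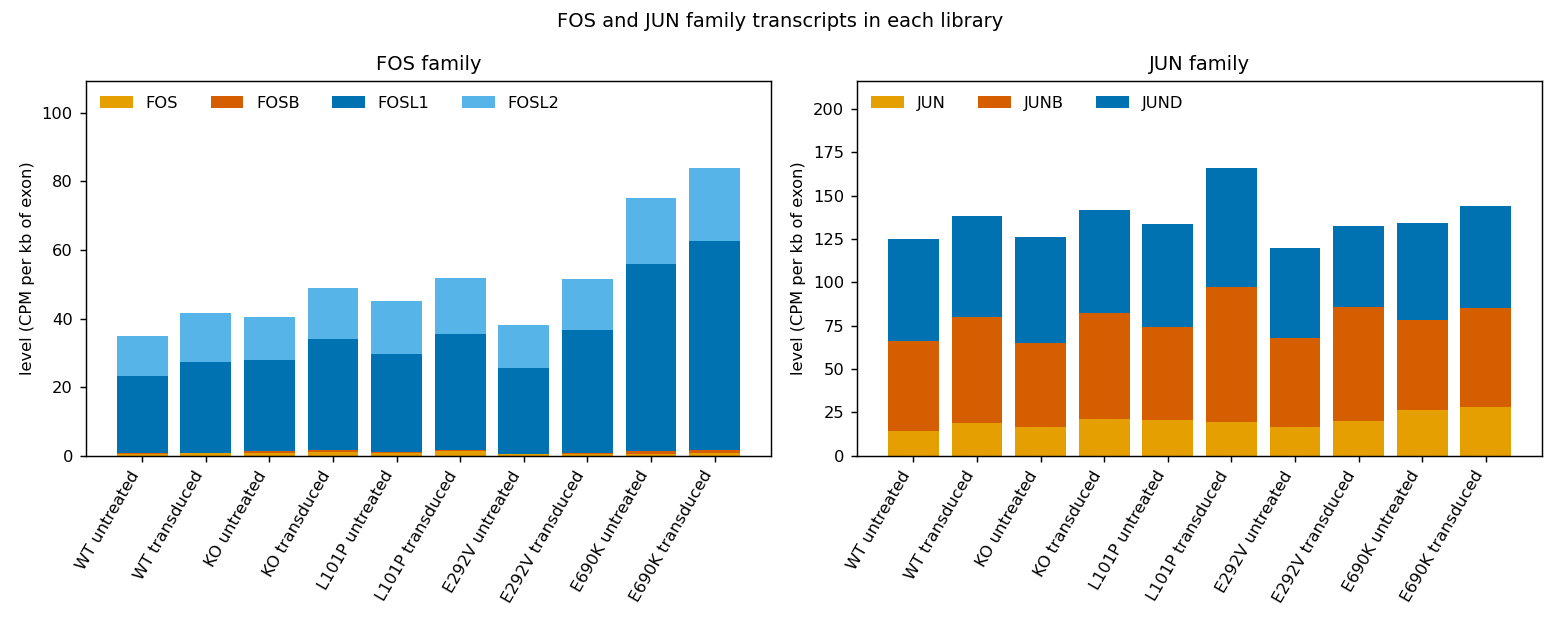
Stacked levels of the FOS family (left) and the JUN family (right) in CPM per kb of exon for each of the 10 libraries on the horizontal axis. FOSL1 forms 63.2% to 72.6% of the FOS family bars, which are tallest in E690K, while FOS and FOSB are thin strips at the base.

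What did the vector do to these genes? FOS, FOSL1, JUNB and ATF3 were higher in the transduced library of all 5 lines by the labels, which becomes 4 of 5 if the labels of the KO pair are exchanged. No member passed: 0 of 10 had an adjusted p under 0.05, as had 0% of all genes, and 5 of 10 had an unadjusted p under 0.05, against 6.88% of all genes. The fitted vector effect was 0.33 for JUNB (SE 0.06, adjusted p = 0.109), 0.29 for FOSL1 (SE 0.06, adjusted p = 0.16), 0.38 for ATF3 (SE 0.11, adjusted p = 0.429), 0.43 for FOS (SE 0.15, adjusted p = 0.541) and 0.20 for JUN (SE 0.07, adjusted p = 0.506), on the log2 scale. For IER2, IER3 and DUSP1 it lay between 0.00 and 0.06. EGR1 and FOSB, at 0.16 (SE 0.16) and 0.18 (SE 0.18), had the widest errors, and without the L101P pair they were 0.00 and 0.03.

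The vector result for JUNB and FOSL1 depended on the setting. DESeq2 called both (adjusted p = 0.000239 and 0.00318), as did edgeR with no filter on low counts (0.000106 and 0.00217), while limma-voom called JUNB alone (0.0381). Without the L101P pair edgeR called JUNB (0.0139), FOSL1 (0.0196) and JUN (0.0302). With the KO labels exchanged the fitted effects were 0.31 for ATF3, 0.28 for FOS, 0.18 for JUNB and for FOSL1, 0.07 for JUN and for FOSB and 0.04 for EGR1, each with an adjusted p of 1. Over the 5 lines JUNB stood at 93.5 ± 3.80 CPM untreated and 117.8 ± 14.3 transduced (SD, n = 5) by the labels, and at 98.4 ± 7.64 and 112.9 ± 19.9 with the KO labels exchanged.

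By the labels, 9 of 10 members were higher after transduction in L101P and 9 in KO, and 7 each in E690K, E292V and WT. With the KO labels exchanged the count in KO is 1 of 10. Over the 12962 genes that averaged 1 CPM or more, the share that was higher lay between 50.7% and 52.6%. In L101P 4 members were more than 1.5-fold higher in the transduced library, against 4.70% of those genes: EGR1 (1.73-fold), FOSB (1.69-fold), FOS (1.63-fold) and ATF3 (1.59-fold). In E690K 1 member, FOS, was above 1.5-fold (1.39% of genes), and in WT (2.38%), KO (1.57%) and E292V (2.95%) 0 of 10 were. These are differences between single libraries with no replicate. EGR1 in L101P had intervals of 3.00 to 4.37 CPM untreated and 5.60 to 7.03 CPM transduced, which do not overlap, and those of FOS, 2.02 to 3.17 and 3.58 to 4.75 CPM, do not either. The L101P pair also differed 1.63-fold in total count, and its epithelial marker sum went from 10563 to 15185 CPM. The part of either in these changes was not tested. EGR1 went the other way in E292V (0.720-fold) and FOSB in E690K (0.766-fold). The test that set the vector effect of WT apart from the mean effect of the other lines called 0 of 10 members (0% of all genes) by edgeR, with 0 at an unadjusted p under 0.05, and DESeq2 and limma-voom called 0 as well.

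**Figure D4:**
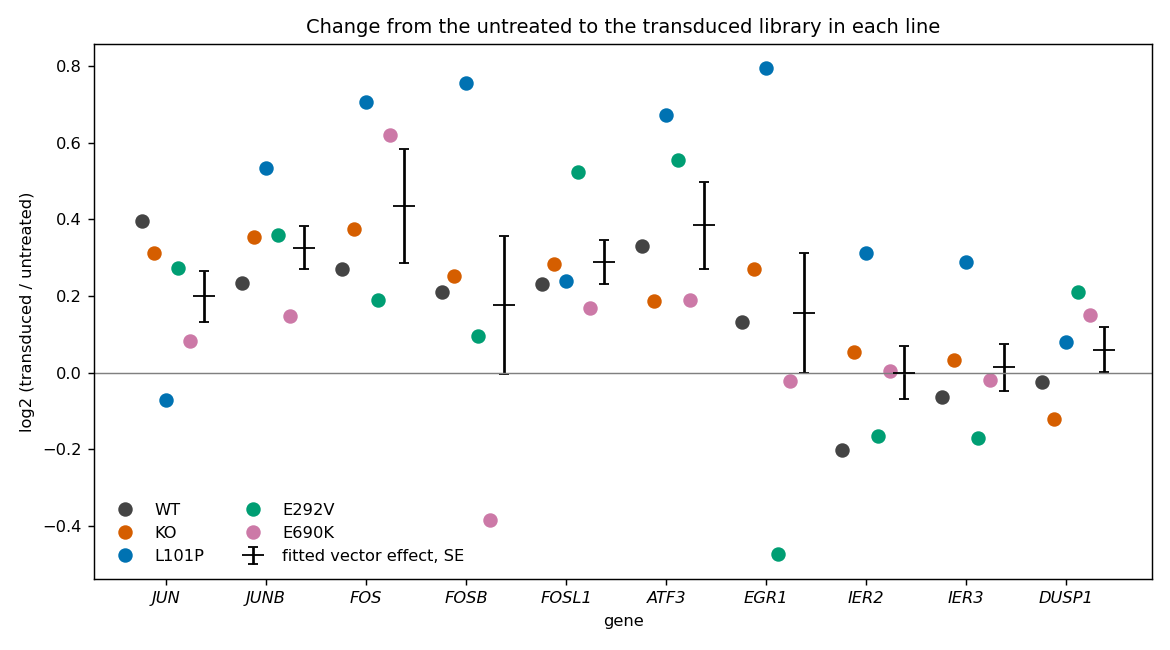
Log2 ratio of the transduced to the untreated library (vertical axis) for each gene, with 1 point per line and, in black, the fitted vector effect with its SE. FOS, FOSL1, JUNB and ATF3 lie above 0 in all 5 lines by the labels, and FOSB and EGR1 spread from -0.38 and -0.47 to 0.76 and 0.79.

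How far do the members move together? Correlations of log2 level over the 10 libraries are given as a description, since the libraries are pairs from 5 lines and share scaling. Of the 45 member pairs 37 had a Pearson r above 0, with a median of 0.403. EGR1 and FOSB had r = 0.978, FOSL1 and JUN 0.945, and IER2 and IER3 0.91. DUSP1 and FOS had the lowest, -0.727. Over the 5 line means the EGR1 and FOSB pair had r = 0.988, and over the 5 within-line changes 0.705 (0.744 with the KO labels exchanged). For FOSL1 and JUN these were 0.987 and 0.313, but the latter was 0.783 with the KO labels exchanged.

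Among 10675 genes averaging 5 CPM or more, the gene most like JUN over the 10 libraries was EGFR, the epidermal growth factor receptor (r = 0.994). EGFR stood at 176.6 and 255.2 CPM in WT and at 354.9 and 378.8 in E690K. FOSL1 was most like CFLAR, an inhibitor of caspase 8 activation (r = 0.983), which stood at 58.3 and 63.8 CPM in WT and 90.4 and 95.2 in E690K. FOSB was most like DDX5, an RNA helicase (r = 0.979), and EGR1 most like PRKAR1A, a regulatory subunit of protein kinase A (r = 0.977). IER3 was most like PPP2R2C, a phosphatase subunit (r = 0.985), IER2 like the cytokine gene IL18 (r = 0.962) and DUSP1 like the actin-binding COTL1 (r = 0.968). FOS was most like the adenylyl cyclase gene ADCY9 (r = 0.961), ATF3 like ABLIM3 (r = 0.956) and JUNB like LBH (r = 0.922). These are the highest of 10675 values for each gene.

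Other genes of the pathway were read from 7 lists. Their counts stand beside the shares of all genes given above, which in E690K were 3.05% higher and 2.33% lower, in L101P 2.33% and 1.61%, in KO 0.807% and 0.990%, and in E292V 0.295% and 0.756%. The lists are short, so 1 or 2 calls already exceed these shares but rest on few genes. Whether they exceed chance was not tested. Leaving out the L101P pair raised the calls over all genes too, from 967 to 2015 in E690K, from 323 to 1145 in KO and from 189 to 700 in E292V. In the test among lines, which 13.0% of all genes passed, 14 of 19 AP-1 targets passed, 10 of 20 effectors, 5 of 13 transcription factors, 5 of 18 ERK feedback genes, 3 of 11 heat-shock genes, 4 of 18 upstream genes and 2 of 10 AP-1 subunits.

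Of 10 tested AP-1 and small Maf subunits, 1 was higher in E690K, FOSL2, a FOS family subunit (0.67, SE 0.08, adjusted p = 0.000474). FOSL2 also passed in L101P (0.32, adjusted p = 0.0399), but not without the KO pair (0.0752), the E292V pair (0.0505) or the E690K pair (0.0772), nor with the KO labels exchanged (0.211). JUND, the JUN family subunit that is made constitutively, passed in no contrast (E690K -0.03, adjusted p = 0.917). The list's median log2 fold change in E690K was 0.21, against -0.02 over all genes. Without the L101P pair 3 of the list passed in E690K and under DESeq2 2 did.

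Of 13 other immediate early transcription factors 4 were higher in E690K, 2 in L101P, 1 in KO and 0 in E292V, and 0 were lower in any of them. KLF4, a growth-arrest factor, rose in E690K (0.73, adjusted p = 0.00185) and L101P (0.66, adjusted p = 0.00623). Its call in KO (0.48, adjusted p = 0.0431) was lost without the E690K pair (0.0838) and with the KO labels exchanged (0.0728). KLF6 and KLF10 passed in E690K (0.39 and 0.37, adjusted p = 0.0165 and 0.0114), but not with the KO labels exchanged (0.0533 and 0.0515), when 2 of the list were left. HES1, a NOTCH target, was called in no contrast with WT in the chosen fit. In E690K (-0.50, adjusted p = 0.0546) it passed with no filter (0.0261), under DESeq2 (0.0262) and without the L101P pair (0.0164), as it did in KO without the L101P pair (0.0329). In L101P 1 of the list was called without the KO pair and 1 without the E690K pair, and in KO 2 were called without the L101P pair.

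Of 20 other immediate early effectors 3 were higher and 1 lower in E690K, 1 higher and 1 lower in L101P, 0 higher and 1 lower in KO, and 0 in E292V. ZFP36L1, an mRNA decay factor, was higher in E690K (0.47, adjusted p = 0.00472), though not with the KO labels exchanged (0.0723). Its call in L101P (0.32, adjusted p = 0.0417) was lost without the KO pair (0.0647), without the E690K pair (0.0709) and with the KO labels exchanged (0.227). CTGF, a YAP and TGF-beta target, fell in KO (-0.76, SE 0.12, adjusted p = 0.00954). SOCS3, an inhibitor of cytokine signalling, was lower in L101P (-0.85, adjusted p = 0.0185) and E690K (-0.69, adjusted p = 0.036). The L101P call was lost without the E690K pair (0.0527) and that in E690K with the KO labels exchanged (0.067), when 0 of the list passed in E690K. Without the L101P pair 8 passed in E690K and 5 in KO, with the wider calling over all genes given above. Without the E292V pair 4 passed in KO, and in L101P 1 passed without the KO pair and 0 without the E690K pair.

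Of 18 ERK feedback inhibitors and output genes 3 were higher in E690K, 2 in L101P and 0 in KO and E292V, with 0 lower. PHLDA1 (0.55, adjusted p = 0.0013) and the ERK phosphatase DUSP7 (0.68, adjusted p = 0.00364) rose in E690K. DUSP4, a nuclear ERK phosphatase, passed in E690K (0.51, adjusted p = 0.0416) but not without the KO pair (0.0645) or with the KO labels exchanged (0.0616). The 2 calls in L101P, DUSP4 and SPRED1, were both lost without the KO pair, without the E690K pair and with the KO labels exchanged. Without the L101P pair 2 of the list passed in KO and 3 in E292V. Of 18 upstream kinases and factors, MAPK3, which encodes ERK1, was lower in E690K (-0.57, adjusted p = 0.0112) and L101P (-0.55, adjusted p = 0.0187). RPS6KA3, which encodes the ERK-activated kinase RSK2, was lower in E292V (-0.48, adjusted p = 0.0118). ELK1, which binds with serum response factor at CArG boxes, was lower in E292V (-0.44, adjusted p = 0.0311). That call was lost without the KO pair (0.0717), without the E690K pair (0.0504) and with the KO labels exchanged (0.0718). In all, 1 of these 18 was higher and 1 lower in E690K, 0 and 1 in L101P, 0 and 2 in E292V, and 0 in KO. MAPK3 in KO (-0.45, adjusted p = 0.0647) passed with no filter (0.0127), under DESeq2 (0.0155), under limma-voom (0.047) and without the L101P pair (0.01).

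AP-1 target genes had the largest share called in E690K of the 7 lists. Of 19 tested, 8 were higher and 0 lower in E690K, with 8 to 12 called in either direction over the other settings. In L101P 6 were higher and 1 lower, in KO 3 higher and 1 lower, and 0 were called in E292V. In L101P the total of 7 became 4 without the KO pair and 2 without the E690K pair, and the 4 in KO became 1 without the E690K pair, 7 without the L101P pair and 2 with the labels exchanged. In E292V 3 were called without the L101P pair. CXCL8, the neutrophil chemokine interleukin 8, stood at 0.612 and 0.680 CPM in WT and at 3.32 and 3.31 in E690K. It rose in E690K (2.36, SE 0.31, adjusted p = 0.00103). In KO (1.72, adjusted p = 0.0158) and L101P (1.58, adjusted p = 0.0154) it passed too, but not without the E690K pair (0.0618 and 0.0512). EREG, an EGFR ligand, rose in E690K by 0.81 (adjusted p = 0.000228), and PLAU, the urokinase gene, by 0.83 (adjusted p = 0.000376). EREG also passed in KO (0.42, adjusted p = 0.0228) and L101P (0.33, adjusted p = 0.0431), and PLAU in L101P (0.37, adjusted p = 0.0417). With the KO labels exchanged none of these other calls held (0.0669, 0.102 and 0.275). For EREG both were also lost without the E690K pair (0.0611 and 0.0863). Without the KO pair neither L101P call held (0.0609 and 0.0798). IL11, a cytokine of the IL-6 family, fell in KO (-1.19, adjusted p = 0.0161) and L101P (-1.36, adjusted p = 0.00622). In E690K it was also below WT (-0.54, adjusted p = 0.173). That difference passed with no filter (0.00767) and without the L101P pair (0.00781). The list's median log2 fold change in E690K was 0.41.

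Heat-shock genes belong to a different stress response. Their summed level, which abundant members dominate, ran from 7792 CPM in untreated KO to 8430 CPM in transduced E292V, a 1.08-fold range. Of 11, 3 passed among lines, 0 in E690K and E292V, and 1 was lower in KO and 1 in L101P. The KO call was HSPA1B, an HSP70 gene (-0.49, adjusted p = 0.0238), whose near-identical copy HSPA1A can share its reads. Without the L101P pair 1 passed in E690K and 4 in KO, and without the E690K pair 0 passed in KO and in L101P. The L101P call, HSPB1, was also lost without the KO pair (0.0804), without the E292V pair (0.0531) and with the KO labels exchanged (0.0706). For the vector effect 0 genes of each of the 7 lists passed in the chosen fit, the lowest adjusted p being 0.109 for PLAU (0.35, SE 0.06). PLAU passed with no filter (2.5e-05), under DESeq2 (7.02e-05), under limma-voom (0.0334) and without the L101P pair (0.0085). FOSL2 passed with no filter (0.0249), under DESeq2 (0.0194) and without the L101P pair (0.0154), and ZFP36L1, an mRNA decay factor, with no filter (0.0116) and under DESeq2 (0.00928). Over the settings up to 3 AP-1 targets, 2 effectors, 1 AP-1 subunit and 1 upstream gene were called for the vector effect.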

How the data were processed

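RNA was sequenced from 10 A549 libraries made with a total-RNA kit, per the labels' protocols. The authors deposited unnormalized counts, as whole numbers for each gene and library. The submitters' processing notes name featureCounts, Subread, edgeR, limma and GRCh38. Versions, annotation and strand use are not given in the sources used here. Coordinates are from GENCODE release 29. Of the counts from 1 to 10, 81.4% were even, as when both mates are counted, so Wilson 95% intervals use the count divided by 2. They cover counting error only. The tests and the filters used the deposited counts undivided.

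edgeR 4.0.16 in R 4.3.3 was run with filterByExpr (17978 genes kept), TMM (factors 0.972 to 1.03) and an additive fit of line and vector (4 residual degrees of freedom). The 2 libraries of a line are paired because they come from the same cell line. Nothing says that lines were cultured separately in replicate. The spread behind the p-values is how unlike the change between the 2 libraries of a line was from line to line. In a contrast between lines those 2 libraries stand in for replicates, and the spread between cultures of a line was not measured. Levels are TMM-scaled CPM. Alternatives were DESeq2 1.42.0, limma-voom (limma 3.58.1), other filters and scaling, each line left out, and the KO labels exchanged. Named list genes were at most 4 a list, those with the smallest p among lines and a mean of at least 1 CPM. Likeness was Pearson's r on log2 CPM with a prior count of 2, and the most alike gene was named. The script was tested on simulated data. Members, lists and tests were chosen with earlier results of these data known.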

Additional observations from a re-analysis of the deposited data

Results flagged for a closer look

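For each member's untreated level, transduced level and change between them, the highest or lowest of the 5 lines was compared with its nearest neighbour, as a share of the whole range, against Dixon's critical value of 0.71 for 5 values. Of these 30 sets 3 were beyond it, all for E690K at the high end: FOSL1 untreated (0.813), FOSL1 transduced (0.72) and JUN transduced (0.768). No set of changes was beyond it. Chance places about 1 in 20 such sets beyond the value, and the lines are different genotypes, not replicates.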

How the results depend on the processing

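No member reversed direction while called in any setting. Of the members' values under other settings, 652 kept their side of the threshold, 23 gained it and 15 lost it. The vector effect, called for 0 members, was called for 2 with no filter, 2 under DESeq2 and 1 under limma-voom, and for 0 to 3 with a line left out, the highest without L101P. Without line in the fit (no replicate block) it was called for 0. The pairing by line comes from the cell lines. Any difference among lines was called for 4 to 8 members with a line left out (8 with all lines), the lowest without E690K. KO against WT gave 2 to 4 with a line left out, L101P against WT 2 to 4, E292V against WT 0 to 2 and E690K against WT 5 each time. A contrast with WT could not be run without the WT pair or without the pair of its own line. E292V against WT gave 1 with no filter. The vector effect in WT against the other lines gave 0 in all settings. Over all genes, the vector effect was called for 0, and for 237 with no filter, 118 under DESeq2, 26 under limma-voom, 148 without L101P and 3 without E690K. E690K against WT ran from 599 to 2015 genes (967 in the chosen fit), L101P from 367 to 1437 (709), KO from 142 to 1145 (323), E292V from 80 to 700 (189) and any line from 980 to 3743 (2337). The lowest counts for KO, L101P and E690K came with the KO labels exchanged. CPM without TMM differed by a factor of 0.971 to 1.03. Depth limits the single-library levels of the scarce members, such as FOSB in untreated WT, which rests on 66 counts.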
